A study of Mus musculus with 53 samples.

Results

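The CD4/CD8 coreceptor genes and 3 of their lineage regulators were followed through 53 mouse T-cell lymphoblast tumours of 15 genetic backgrounds. The genes are Cd4, Cd8a, Cd8b1, Zbtb7b (which encodes ThPOK), Zbtb7a (which encodes Pokemon, also called LRF) and Tox. All their probe sets in the array's gene table were taken, which gave 6 genes of 12393 and 10 probe sets of 22626. Cd4, Cd8a, Zbtb7b and Tox had 2 probe sets each, and Cd8b1 and Zbtb7a had 1 each. All 10 passed a filter that asks for signal over an array's median on 3 or more arrays. However, Zbtb7b 1420663_at lay above the array median on only 14 of 53 arrays, and Zbtb7a on 20 of 53.

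CD4 and CD8 are the coreceptors that help the T-cell receptor see MHC class II and class I molecules. Developing thymocytes pass through a stage that carries both and then keep only one of them. ThPOK is a zinc finger repressor needed for the CD4 helper fate and shuts down Cd8 genes and cytotoxic genes, Pokemon is a related repressor of the same family and a proto-oncogene, and TOX is a nuclear HMG-box protein needed for the CD4 lineage to form.

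Every tumour had 1 oligonucleotide array of total RNA, and the values below are log2 of the deposited intensity, so that a difference of 1 is a 2-fold difference. The groups set first are 3 tumours of ThPOK transgenic mice and 2 of Pokemon transgenic mice. Beside them stand 9 tumours of Cdkn2a knock out mice with retroviral insertional mutagenesis, 6 of mice that are TLX1 transgenic and RUNX heterozygous (TLX1 RUNX het), and 6 of TLX1 transgenic mice. Backgrounds with 3 tumours each are beta-catenin, LMO1 and Nup98HoxD13 transgenic, olig-LMO1 and Tal1-LMO2 double transgenic, p53 knock out, and the background labelled Ikaros Plastic. The Tal1 transgenic, rag E2A knock out and E2A knock out backgrounds had 2 each. All mice are labelled C57BL/6. The labels name neither the promoter of any transgene nor which Rag gene was altered. For the TLX1 RUNX het tumours the sample titles give RUNX1, while the genotype field says only RUNX. The labels also give olig1 in one field and olig2 in another, and they call the TLX1 RUNX het tumours TLX1 negative. The titles of the rag E2A knock out tumours continue the numbering of the E2A knock out titles without naming rag. These backgrounds were therefore separated by the genotype field. No group of normal thymus or normal T cells was analysed here. Nothing states whether tumours that share a background were taken from different mice; p-values therefore speak only of how these samples vary, and that variation may be technical.

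The tumours carried T-cell marker transcripts. Cd3e and Thy1, parts of the T-cell surface, lay above the array median on 53 of 53 arrays, and the receptor chains Cd3d and Cd3g on 52 of 53. The arrays fell into 4 array sets by their bacterial control probe sets. The largest held 38 arrays of 13 backgrounds, another held all 6 TLX1 tumours with p53 knock out tumours 1 and 2, a set of 6 held all TLX1 RUNX het tumours, and Tal1-LMO2 tumour 2 stood alone. All ThPOK, Pokemon, E2A knock out and rag E2A knock out tumours lay in the largest set. Median intensity per array ran from 377.2 to 589.6. In bulk tumour RNA, fewer cells of a type and less RNA per cell cannot be told apart.

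Of the 6 genes, 3 had a RefSeq promoter window (build GRCm38.p6). The Cd8a and Zbtb7b windows are shown because these genes set the ThPOK tumours apart in the values that follow, with capitals on each E-box (CANNTG, the motif bound by E2A, whose loss defines 2 of the backgrounds). They are Cd8a at chr6:71373177-71373476 on the plus strand and the Zbtb7b starts at chr3:89393329-89393628 and chr3:89387622-89387921 on the minus strand.
Cd8a: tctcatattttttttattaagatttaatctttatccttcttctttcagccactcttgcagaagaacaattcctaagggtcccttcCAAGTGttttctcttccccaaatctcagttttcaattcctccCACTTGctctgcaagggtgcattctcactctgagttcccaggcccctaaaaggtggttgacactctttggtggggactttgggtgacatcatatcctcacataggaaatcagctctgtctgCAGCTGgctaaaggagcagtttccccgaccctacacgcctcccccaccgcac
Zbtb7b, first window: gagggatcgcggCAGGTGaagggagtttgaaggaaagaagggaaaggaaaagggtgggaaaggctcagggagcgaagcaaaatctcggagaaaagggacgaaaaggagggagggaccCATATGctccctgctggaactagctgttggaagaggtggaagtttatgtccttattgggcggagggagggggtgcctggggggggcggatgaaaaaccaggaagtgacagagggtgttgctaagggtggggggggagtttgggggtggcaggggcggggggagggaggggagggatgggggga
Zbtb7b, second window: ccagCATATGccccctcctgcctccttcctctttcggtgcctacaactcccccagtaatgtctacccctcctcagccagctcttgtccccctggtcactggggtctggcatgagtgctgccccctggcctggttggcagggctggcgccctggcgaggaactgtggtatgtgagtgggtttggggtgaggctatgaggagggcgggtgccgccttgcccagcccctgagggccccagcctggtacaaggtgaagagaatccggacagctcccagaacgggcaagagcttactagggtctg

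The Cd8a window held 3 E-boxes, and the Zbtb7b windows held 2 and 1. Of 32851 windows of the same length, 72.3% held at least 1, so their presence is common. The RUNX core motif TGTGGT, read on both strands (ACCACA on the other), was in 16.8% of all windows. It was absent from the Cd8a window and from the first Zbtb7b window, and stood once in the second, 89 bases before the start and outside the E-box. The window of Zbtb7a (chr10:81136021-81136320, plus strand) held neither motif.

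ThPOK transgenic tumours had low Cd8a with Cd4 near the level of the other backgrounds. Cd8a encodes the alpha chain, which every CD8 molecule contains. Its probe set 1451673_at read 8.07, 8.17 and 8.17 in ThPOK tumours, against 7.34 at the lowest, 11.78 at the median and 12.89 at the highest of the 50 other tumours. Only 4 of those 50 were as low: 3 TLX1 RUNX het tumours and p53 knock out tumour 2. Within the largest array set the ThPOK tumours lay below all 35 others, whose lowest value was 8.73. By this probe set all 3 ThPOK tumours also read below the medians of their own arrays (8.99 to 9.04). The difference from the mean of the other 14 backgrounds was −3.08 ± 0.59 (SE, n = 3; limma adjusted p = 0.000116), an 8.44-fold lower level. It was the fifth lowest difference of all probe sets in this comparison.

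The other Cd8a probe set, 1425335_at, which has the higher mean and is taken as leading, gave 9.40, 9.55 and 9.38 in ThPOK tumours, against a lowest value of 8.52, a median of 11.51 and a highest of 12.57 in the others. It was lower by a log2 difference of −1.80 ± 0.41 (limma adjusted p = 0.000902). The 2 Cd8a probe sets moved together over the 53 arrays with a correlation of 0.96, but their spans differ, so the size of the Cd8a difference depends on the probe set.

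Cd8b1 encodes the beta chain, which pairs with alpha on conventional CD8 T cells and lies beside Cd8a on chromosome 6 with 0 annotated genes between them. It read 11.90, 9.24 and 10.59 in ThPOK tumours, against 7.95 at the lowest, 11.43 at the median and 13.05 at the highest of the others. ThPOK tumour 1 had Cd8b1 above the others' median, and tumour 2 lay near the floor of the largest array set (9.19). The difference of −0.69 ± 0.54 did not pass the test (adjusted p = 0.364). Whether the Cd8b1 difference is smaller than that of Cd8a was not tested.

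Cd4, by its leading probe set 1419696_at (the one of highest mean), read 9.37, 11.11 and 11.18 in ThPOK tumours, against 8.77, 10.77 and 12.54 at the lowest, median and highest of the others. Tumours 2 and 3 lay above the median of the others and tumour 1 well below it. The second Cd4 probe set was more even, with 9.70, 9.91 and 10.06. Neither passed the test, with log2 differences of −0.01 ± 0.29 and 0.17 ± 0.17 (adjusted p = 0.985 and 0.491). Without ThPOK tumour 1 the first became 0.58.

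**Figure D1:**
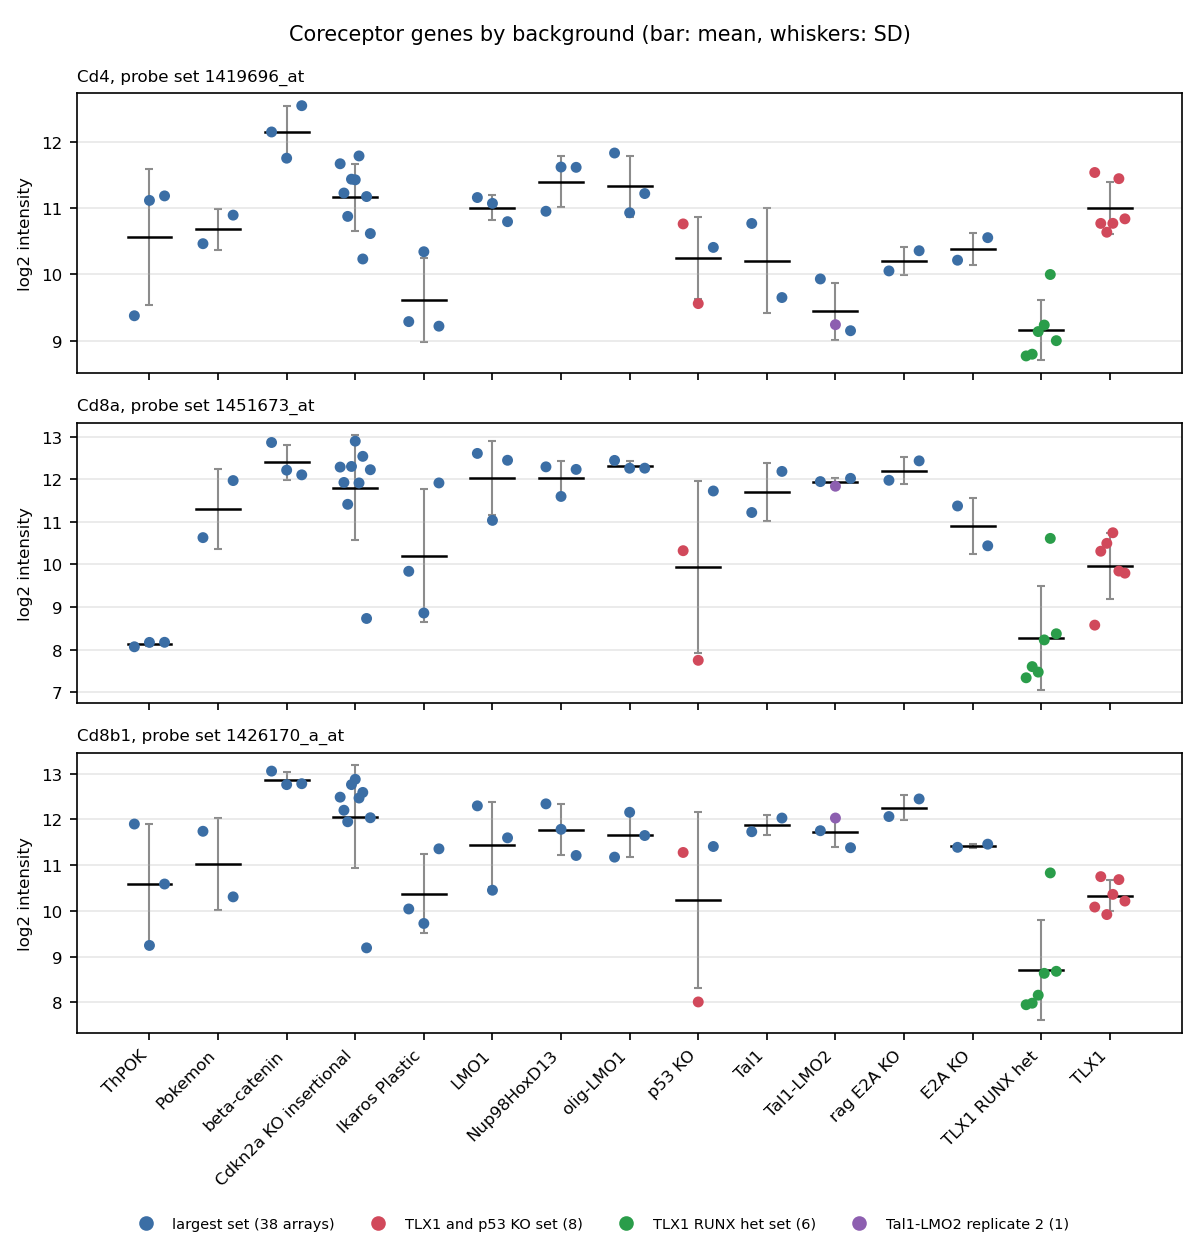
Log2 intensity of Cd4, Cd8a and Cd8b1 (vertical axes) in each tumour (points, coloured by array set) of the 15 backgrounds, with the mean as a bar and the SD as whiskers. The 3 ThPOK tumours sit together at 8.07 to 8.17 for Cd8a while their Cd8b1 values spread from 9.24 to 11.90.

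The ThPOK gene itself was higher in these tumours by 1 of its 2 probe sets. Zbtb7b 1420663_at read 9.77, 9.60 and 9.48 in ThPOK tumours, against a lowest value of 8.02, a median of 8.67 and a highest of 10.13 in the others. None of the 35 other tumours of the largest array set reached them (highest 9.45), but all 6 TLX1 tumours (9.58 to 10.13) and p53 knock out tumours 1 and 2 (9.78 and 9.83) did. The log2 difference was 0.88 ± 0.13 (limma adjusted p = 2.07e-06), a 1.84-fold higher level. The remaining p53 knock out tumour, number 3, lies in the largest set and read 8.96. All TLX1 tumours lie in the array set of p53 knock out tumours 1 and 2, so array set and TLX1 background cannot be told apart here. The part of array set was not tested. The largest set alone gave 0.98 for ThPOK.

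Zbtb7b 1455071_at, the leading probe set, read 9.57, 9.66 and 9.50 in ThPOK tumours, against 8.44, 9.24 and 10.34 at the lowest, median and highest of the others. The groups overlapped, since 10 of the 50 other tumours were at or above the lowest ThPOK tumour. The difference of 0.27 ± 0.19 did not pass the test (adjusted p = 0.301). The labels do not tell which stretch of the transcript the transgene carries, so neither probe set is known to read the transgene.

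Zbtb7a was slightly lower in ThPOK tumours, at 8.35, 8.41 and 8.47, all below their array medians. The others had 7.80, 8.75 and 12.13 at the lowest, median and highest. The log2 difference of Zbtb7a was −0.59 ± 0.16 (adjusted p = 0.00579). The comparison backgrounds include the Pokemon transgenic tumours, and without them the difference was −0.36 (adjusted p = 0.109). Tox read 9.38, 10.28 and 10.30 by its leading probe set 1425484_at in ThPOK tumours, against a median of 10.42 in the others, with log2 differences of 0.01 ± 0.43 and, for the other probe set, −0.19 ± 0.32 (adjusted p = 0.990 and 0.714).

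In all, 4 of the 10 probe sets passed the test in ThPOK tumours, 1 higher and 3 lower. Over all probe sets 28.4% passed, 20.2% higher and 8.17% lower. Each of the 4 calls held when any 1 ThPOK tumour was left out.

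In Pokemon transgenic tumours 1 member alone passed the test, the gene of the transgene. Zbtb7a read 12.13 and 12.02 in Pokemon tumours, against a lowest value of 7.80, a median of 8.72 and a highest of 10.23 in the 48 tumours of backgrounds other than Pokemon and ThPOK. 0 of the 48 reached them. The log2 difference from the other 14 backgrounds was 3.33 ± 0.20 (SE, n = 2; limma adjusted p = 1.68e-15), a 10.1-fold higher level and the third highest difference of all probe sets. Of the 10 probe sets 1 passed, higher, while of all probe sets 3.17% passed and 1.36% were higher.

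The coreceptors of the Pokemon tumours lay within the range of the others and disagreed between the 2 tumours. Cd8a 1451673_at read 10.63 and 11.97, and Cd8b1 11.74 and 10.30, so the tumour with more Cd8a had less Cd8b1. Cd4 1419696_at read 10.46 and 10.89, Tox 1425484_at 10.03 and 9.99, and Zbtb7b 1420663_at 8.35 and 8.34. By this probe set, both Pokemon values lay below their array medians, and 7 of 48 tumours were at or below the higher of them. Its log2 difference of −0.48 ± 0.16 missed the threshold (limma adjusted p = 0.0762), and passed it with quantile normalization (−0.46, adjusted p = 0.0453) or with each array centred on its median (−0.45, adjusted p = 0.0465). The leading Zbtb7b probe set, 1455071_at, read 9.09 and 9.27 in Pokemon tumours and differed by −0.16 (adjusted p = 0.774).

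**Figure D2:**
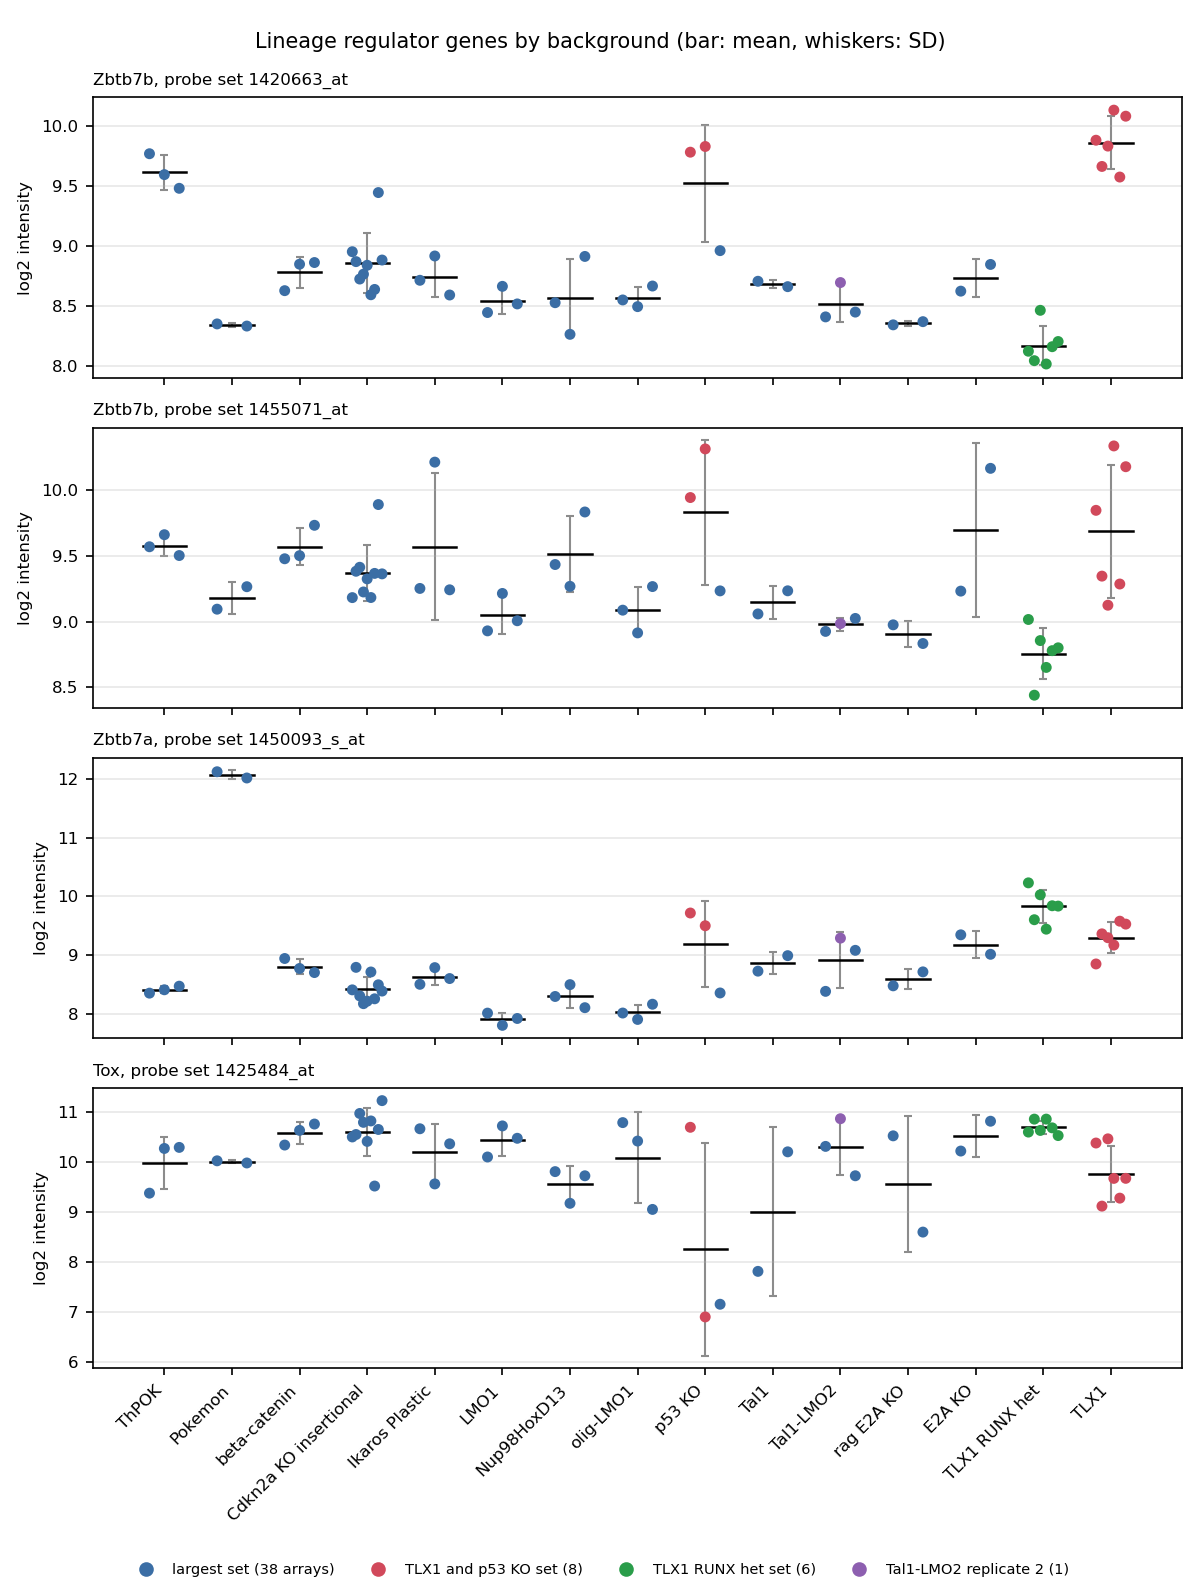
Log2 intensity of Zbtb7b (2 probe sets), Zbtb7a and Tox (vertical axes) in each tumour (points, coloured by array set) of the 15 backgrounds, with the mean as a bar and the SD as whiskers. Zbtb7a stands at 12.02 and 12.13 in Pokemon tumours, and Zbtb7b 1420663_at is high in ThPOK tumours and in the array set of the TLX1 tumours.

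Set directly against each other, ThPOK tumours had less Zbtb7a than Pokemon tumours and, by 1 of 2 probe sets each, less Cd8a and more Zbtb7b. Of the 10 probe sets, 3 passed the test, and over all probe sets 17.7% did. Cd8a 1451673_at differed by −3.16 ± 0.90 (adjusted p = 0.0116) and 1425335_at by −1.61 ± 0.63 (adjusted p = 0.0675), on the log2 scale with n = 3 and 2 and limma. The first no longer passed without Pokemon tumour 1 (−3.83, adjusted p = 0.0556) or without Pokemon tumour 2 (−2.49, adjusted p = 0.145). Zbtb7a differed by −3.66 ± 0.25 and Zbtb7b 1420663_at by 1.27 ± 0.20 (limma adjusted p = 2.1e-13 and 3e-05). Zbtb7b 1455071_at did not pass (0.40, adjusted p = 0.369). Cd4, Cd8b1 and Tox did not pass, with log2 differences between −0.49 and 0.07. The median of all probe sets in this comparison was 0.11.

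**Figure D3:**
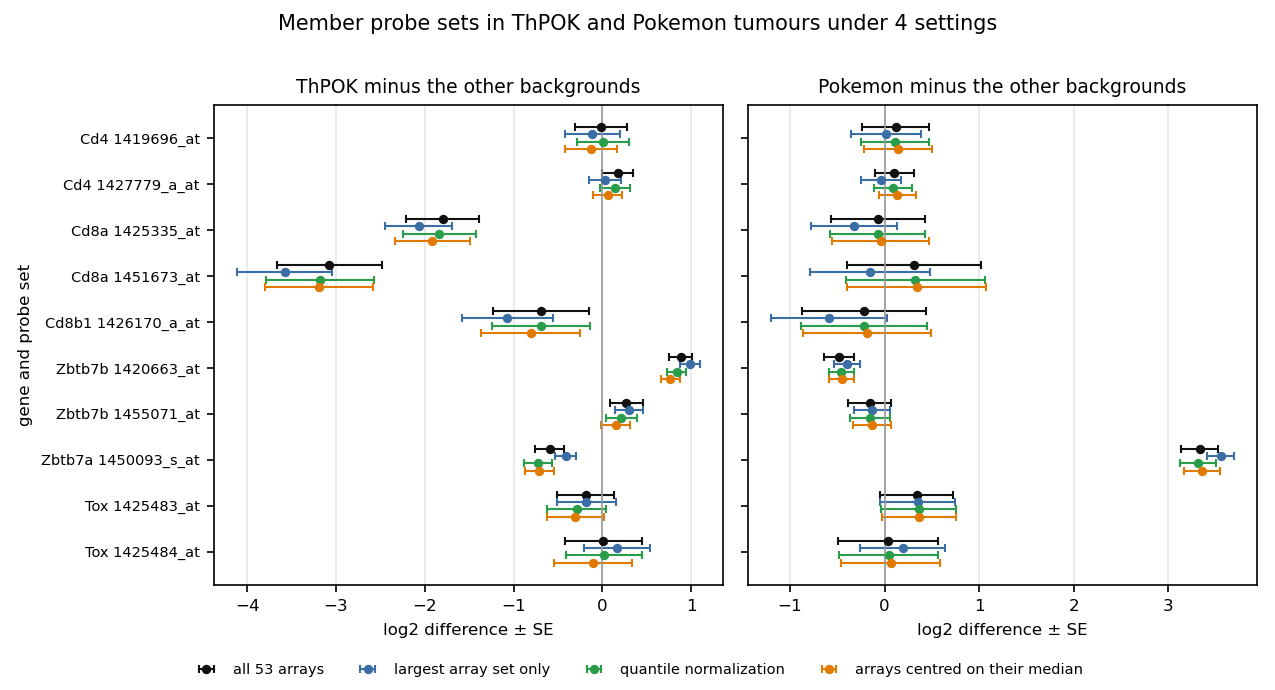
Log2 difference ± SE of each member probe set (rows) in ThPOK tumours (left) and Pokemon tumours (right) from the other backgrounds, with all 53 arrays, the largest array set only, quantile normalization, or arrays centred on their median. Cd8a 1425335_at lies between −2.07 and −1.80 in ThPOK tumours under the 4 settings, and Zbtb7a between 3.31 and 3.55 in Pokemon tumours.

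Other genes of the coreceptor decision were taken from lists. Of 30 lineage regulators, 27 were measured, and in ThPOK tumours 3 were higher and 3 lower (median log2 difference −0.09), while of all genes 21.8% were higher and 7.67% lower (median 0.09). The regulators numbered 2 higher and 7 lower in the largest array set, 3 and 1 with quantile normalization, and 3 and 5 with centred arrays. Runx3, the factor that silences Cd4 and favours the CD8 fate, was higher by 0.57 ± 0.07 (limma adjusted p = 5.06e-08), with ThPOK tumours between 8.72 and 8.78, below their array medians. Runx1 (0.55, adjusted p = 0.00492) and the chromatin remodelling subunit Smarce1 (0.48, adjusted p = 0.00165) were also higher by their leading probe sets, although the other probe sets of Runx1 gave −0.60 to 0.20 and that of Smarce1 gave −0.31. In the largest array set Runx1 had an adjusted p of 0.0512. Ets1, a T-cell transcription factor, was lower (−0.64), as were Stat5b of the cytokine pathway (−0.61) and the deacetylase Hdac3 (−0.32; adjusted p = 0.000498, 0.0232 and 0.0456). With quantile normalization, Stat5b (adjusted p = 0.0583) and Hdac3 (adjusted p = 0.0922) no longer passed.

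Of 9 helper lineage genes measured, 2 were higher in ThPOK tumours, a share near the 21.8% of all genes: Tnfrsf4, the costimulatory receptor OX40 (0.53, limma adjusted p = 0.00117), and Cd40lg, the helper ligand of CD40 (0.19, adjusted p = 0.0467; 0.06 and adjusted p = 0.544 with quantile normalization). Of 10 cytotoxic lineage genes, Klrd1, an NK receptor chain, and Prf1, the pore protein perforin, were higher (0.43 and 0.35), a share near the 21.8% of all genes. Ifng, interferon gamma, was lower (−0.18), where 7.67% of all genes were lower. These genes and Cd40lg read below the array median in every ThPOK tumour. The other Prf1 probe set gave −0.16. In Pokemon tumours, 0 of 27 regulators, 0 of 9 helper genes and 0 of 10 cytotoxic genes passed with limma (2, 3 and 0 at an unadjusted p under 0.05), and 2.92% of all genes did.

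Markers of other cells were measured beside these. Of 13 myeloid and dendritic cell markers, 3 were higher in ThPOK tumours, a share near the 21.8% of all genes: Cd68 (0.99, limma adjusted p = 0.00286), Lyz2 (0.71, adjusted p = 0.0447) and Batf3 (0.28, adjusted p = 0.00813). With quantile normalization Batf3 (adjusted p = 0.0831) and with centred arrays Lyz2 (adjusted p = 0.105) no longer passed. Their summed intensity ran from 17024 to 23202 in ThPOK tumours and from 18728 to 19676 in Pokemon tumours, and the other backgrounds spanned 8584 to 55455. Of 6 B-cell markers 0 passed in ThPOK tumours (1 at an unadjusted p under 0.05), and of 3 NK and innate lymphoid markers Klrk1 did (0.31, adjusted p = 0.0115; 0.0532 in the largest array set, 0.168 with quantile normalization and 0.0802 with centred arrays). Klrk1 read below the array median in every ThPOK tumour. Among 11 T-cell genes, the receptor modulator Cd5 was lower (−1.31, adjusted p = 0.0318; 0.0628 in the largest array set). The part of these in the differences of the members was not tested.

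Across the 15 backgrounds all 10 member probe sets passed the moderated F test, as did 90.7% of all probe sets. Of 150 pairs of a background and a member probe set, 44 passed against the other backgrounds, and 25% of all such pairs did. The share of the variance that lay between backgrounds ran from 49.2% and 54.8% for the Tox probe sets to 92.4% for Zbtb7a and for Cd4 1427779_a_at. Neighbours in the order of background means mostly overlapped, in 12 to 14 of 14 steps for each probe set.

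**Figure D4:**
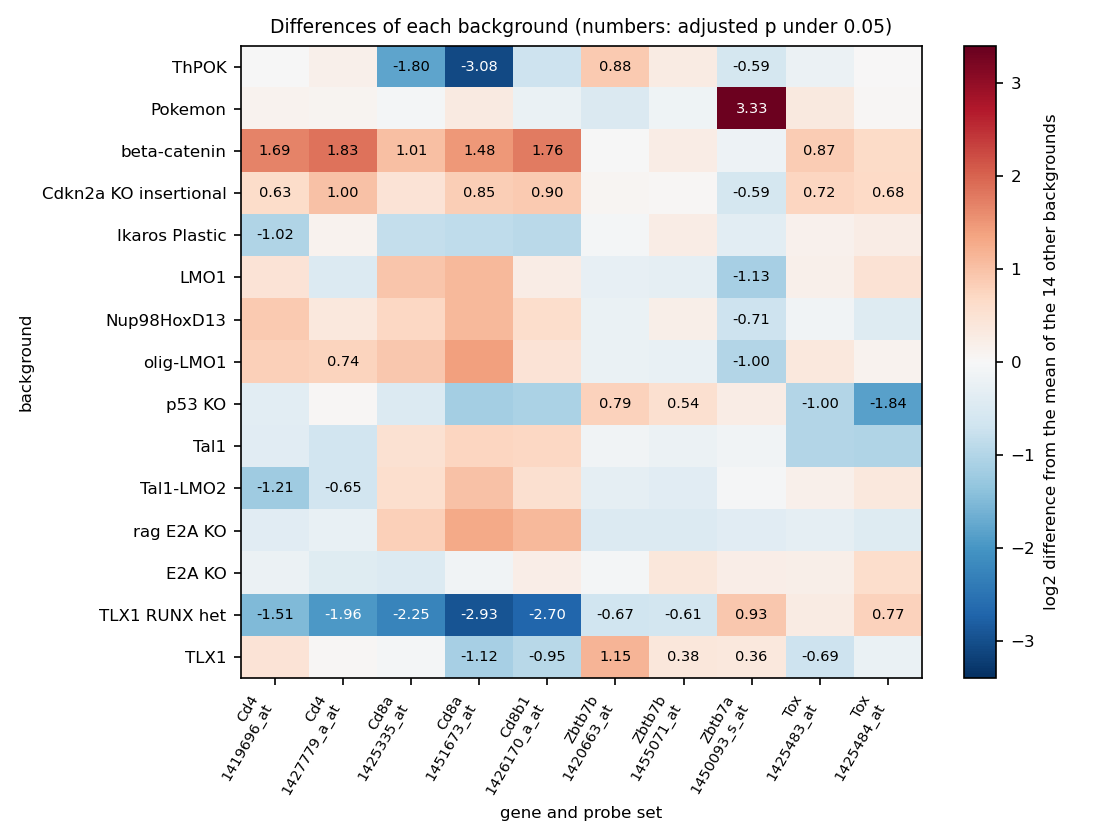
Log2 difference of each background (rows) from the mean of the 14 other backgrounds for the 10 member probe sets (columns), with the number printed where limma's adjusted p is under 0.05. The beta-catenin row is high for all coreceptors, the TLX1 RUNX het row is low for all of them, and ThPOK is low for Cd8a.

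Beta-catenin transgenic tumours had the highest mean coreceptor levels. Cd4 1419696_at read 12.15, 11.75 and 12.54 in beta-catenin tumours, and the next background in order, Nup98HoxD13, lay below with no overlap (highest 11.62), although olig-LMO1 tumour 1 (11.83) and Cdkn2a tumour 6 (11.79) lay above the lowest beta-catenin tumour. Cd8b1 read 13.05, 12.76 and 12.78 in beta-catenin tumours and overlapped with Cdkn2a tumours 5 (12.88) and 4 (12.76), but not with the next background by mean, rag E2A knock out. The log2 differences from the other backgrounds were 1.69 and 1.83 for Cd4, 1.01 and 1.48 for Cd8a, and 1.76 for Cd8b1 (limma adjusted p = 0.0464 at the most, where 39.3% of all probe sets passed). The 2 Cd8a calls were lost whenever 1 beta-catenin tumour was left out, and the Cd8b1 call without beta-catenin tumour 1 (1.67, adjusted p = 0.0517).

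Cdkn2a knock out tumours, with 9 arrays the largest group, were higher in both Cd4 probe sets (0.63 and 1.0), Cd8a 1451673_at (0.85), Cd8b1 (0.90) and both Tox probe sets (0.72 and 0.68) and lower in Zbtb7a (−0.59), where 52% of all probe sets passed. The leading Cd8a probe set, 1425335_at, did not pass (0.47, limma adjusted p = 0.116). Cd8a 1451673_at ran from 11.41 to 12.89 in 8 of them and read 8.73 in tumour 8. The Cd8a call was lost when any 1 of the other 8 was left out (differences of 0.71 to 0.90), and the Cd8b1 call without tumour 4 or 5 (0.81 and 0.80). The call of Tox 1425484_at was lost without tumour 3, 4, 6 or 9 (0.60 to 0.66). Tumour 8, titled for Pim1 and Ccnd3 and singled out after its values were seen, also had Cd8b1 at 9.19, Zbtb7b at 9.45 and 9.89 and Cd4 at 11.17. The ThPOK tumours also had low Cd8a with higher Zbtb7b, by 1 of its 2 probe sets, but their Cd8b1 spread from 9.24 to 11.90. In p53 knock out tumour 2, Cd8a 1451673_at read 7.75 and Zbtb7b 1420663_at at least 9.78, with Cd4 at 9.56 and 9.80.

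The background labelled Ikaros Plastic was lower in Cd4 1419696_at (−1.02, limma adjusted p = 0.007, with 32.2% of all probe sets passing) but not in 1427779_a_at (0.11, adjusted p = 0.669), and Tal1-LMO2 in both Cd4 probe sets (−1.21 and −0.65, with 4.52% passing), while their Cd8 genes did not pass. Ikaros Plastic tumours read 9.29, 10.34 and 9.22 for Cd4 1419696_at, and Tal1-LMO2 tumours read 9.93, 9.24 and 9.15. Cd8a 1451673_at lay between 11.83 and 12.02 in Tal1-LMO2 tumours. The Ikaros Plastic call was lost without tumour 1 (−0.86, adjusted p = 0.0676) or 3 (−0.82, adjusted p = 0.0775), and the Tal1-LMO2 calls without tumour 2 (−1.11 and −0.57) or 3 (−1.06 and −0.61).

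Zbtb7a was lower in LMO1 (−1.13, 17.9% of all probe sets passing), olig-LMO1 (−1.0, 16.8%) and Nup98HoxD13 tumours (−0.71, 3.56%). It read 8.01, 7.80 and 7.92 in LMO1 tumours and 8.01, 7.90 and 8.16 in olig-LMO1 tumours, which share the LMO1 transgene. These are the 2 lowest background means of the series. All Zbtb7a readings of LMO1, olig-LMO1 and Nup98HoxD13 tumours lay below their array medians. The Nup98HoxD13 call was lost without tumour 1 (−0.71, limma adjusted p = 0.08) or 3 (−0.61, adjusted p = 0.086).

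Tox was lowest in p53 knock out tumours, at 10.70, 6.91 and 7.16 by 1425484_at. Tumours 2 and 3 lay below all others, and tumour 1 above the median of the series. The log2 differences were −1.84 and −1.0 (limma adjusted p = 0.000638 and 0.0106, with 46% of all probe sets passing). Without p53 knock out tumour 2 they were −1.17 and −0.68 (adjusted p = 0.0767 and 0.197), and without tumour 3 the second was −0.84 (adjusted p = 0.0713). Tal1 tumour 1, at 7.82, and rag E2A knock out tumour 4, at 8.61, were the next lowest. Both Zbtb7b probe sets were higher in p53 knock out tumours (0.79 and 0.54, limma adjusted p = 5.01e-06 and 0.0169). The second of these calls was lost without p53 knock out tumour 1 (0.48) or 2 (0.30), which lie in the array set of the TLX1 tumours. The summed intensity of the 11 T-cell genes ran from 9243 to 42737 in p53 knock out tumours. The lowest in any other background was 19209, in TLX1 RUNX het tumours. The part of T-cell content in the p53 knock out values of the members was not tested.

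TLX1 tumours, set against the other backgrounds, passed in 6 of 10 probe sets (55.7% of all). Zbtb7b (1.15 and 0.38) and Zbtb7a (0.36) were higher. Cd8a 1451673_at (−1.12), Cd8b1 (−0.95) and Tox 1425483_at (−0.69) were lower. The leading Cd8a probe set, 1425335_at, did not pass (−0.07, limma adjusted p = 0.856). TLX1 tumours share their array set only with some p53 knock out tumours, and the part of array set was not tested. The Cd8a call was lost without TLX1 tumour 1 (−0.85, limma adjusted p = 0.117) or 6 (−1.09, adjusted p = 0.0516), that of Cd8b1 without 1, 3, 4 or 6 (−0.96 to −0.87), and that of Zbtb7b 1455071_at without 4 or 6 (0.25 and 0.29). The Tox call was lost without TLX1 tumour 5 (−0.59). The Tal1, E2A knock out and rag E2A knock out backgrounds passed in 0 of 10 with limma, where 4.89%, 1.96% and 2.23% of all probe sets did, and in 2, 0 and 1 at an unadjusted p under 0.05. TLX1 RUNX het tumours passed in 9 of 10 (66.9% of all), with Cd4 at −1.51 and −1.96, Cd8a at −2.25 and −2.93 and Cd8b1 at −2.70 from the other backgrounds.

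TLX1 RUNX het tumours differed from TLX1 tumours in nearly every member. In the 6 TLX1 RUNX het tumours Cd4 1419696_at ran from 8.77 to 9.997 (median 9.07), against 10.63 to 11.54 (median 10.80) in the 6 TLX1 tumours, with no overlap. Zbtb7b 1420663_at ran from 8.02 to 8.47 (median 8.14) in TLX1 RUNX het tumours, against 9.58 to 10.13 (median 9.86) in TLX1 tumours, again with no overlap. Cd8a 1451673_at ran from 7.34 to 10.61 (median 7.91) in TLX1 RUNX het tumours, against 8.57 to 10.74 (median 10.08) in TLX1 tumours, and here the groups overlapped through TLX1 RUNX het tumour 5, since the other 5 did not go above 8.37.

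Of the 10 probe sets, 9 passed the test between TLX1 RUNX het and TLX1 tumours, 2 higher and 7 lower, where 62.1% of all probe sets passed, 20.4% higher and 41.8% lower. The log2 differences were −1.84 and −1.85 for Cd4, −2.04 and −1.69 for Cd8a, −1.63 for Cd8b1 and −1.69 and −0.93 for Zbtb7b, and 0.53 for Zbtb7a and 0.91 for Tox 1425483_at. Tox 1425484_at (0.93, limma adjusted p = 0.052) missed the threshold. The median of all probe sets was −0.15, and relative to it Cd4 was at −1.70, Cd8b1 at −1.48, and Zbtb7a at 0.68. Directions were the same with quantile normalization and with arrays centred on their median, where the median of all probe sets was 0.07 and 0.23.

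Each of these backgrounds lies in an array set of its own, apart from 2 p53 knock out tumours in the TLX1 set, so genotype and array set cannot be told apart. The TLX1 RUNX het arrays also stood apart by the 18S ribosomal control, at 12.35 to 13.13, against 8.88 to 9.31 on the TLX1 arrays, on the log2 scale. The log2 ratio of the 3′ to the 5′ actin control, a sign of RNA quality, was 0.569 to 0.883 on TLX1 RUNX het arrays, against 0.794 to 2.17 on TLX1 arrays. T-cell genes were lower too: of 11, 6 were lower and 0 higher in TLX1 RUNX het tumours, including Cd3d (−1.69) and Cd3e (−0.88), and their median was −0.73, against −0.20 for all genes, of which 44.5% were lower. Their part in the coreceptor differences was not tested.

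Rag E2A knock out and E2A knock out tumours did not differ by the test in any of the 10 probe sets, and 0.00442% of all probe sets, 1 in number, passed. Cd8a 1451673_at read 11.97 and 12.43 in rag E2A knock out tumours, against 11.37 and 10.44 in E2A knock out tumours, with a log2 difference of 1.30 ± 0.99 (limma adjusted p = 0.945). At an unadjusted limma p under 0.05 there were 2 of the 10, Zbtb7a (−0.58, adjusted p = 0.874) and Zbtb7b 1455071_at (−0.79, adjusted p = 0.777).

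From tumour to tumour the 2 chains of CD8 went together. Over 53 tumours Cd8a and Cd8b1, by their leading probe sets, correlated with Pearson r = 0.84 and Spearman rho = 0.78 (permutation p = 1e-05 for each, the smallest that 100000 permutations can give; adjusted 0.00015 over 15 pairs of members). Permutations over all tumours ignore that tumours share backgrounds and array sets, so this p-value takes no account of either. Without the 2 tumours farthest from the Cd8a median r was 0.80. Within backgrounds, taking each tumour's deviation from its background mean, r was 0.73 (permutation p = 0.00024, adjusted 0.0036), and over the 38 tumours of the largest array set it was 0.71. Cd4 and Cd8a gave r = 0.55 over all tumours and 0.31 in the largest array set. Within backgrounds r was 0.12 (permutation p = 0.453), so no relation was detected there.

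Within backgrounds, tumours with more Zbtb7b had less Cd8b1. With the leading probe sets, 1425335_at for Cd8a and 1455071_at for Zbtb7b, Cd8b1 and Zbtb7b gave r = −0.44 within backgrounds (permutation p = 0.00187, adjusted 0.014) and −0.03 over all tumours (permutation p = 0.819; rho −0.01). Cd8a and Zbtb7b gave −0.43 within backgrounds (permutation p = 0.0174, adjusted 0.0868) and −0.03 over all tumours, and −0.54 in the largest array set. Without the 2 tumours farthest from their background mean in the Cd8 gene, the values within backgrounds were −0.29 for Cd8b1 and −0.40 for Cd8a.

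**Figure D5:**
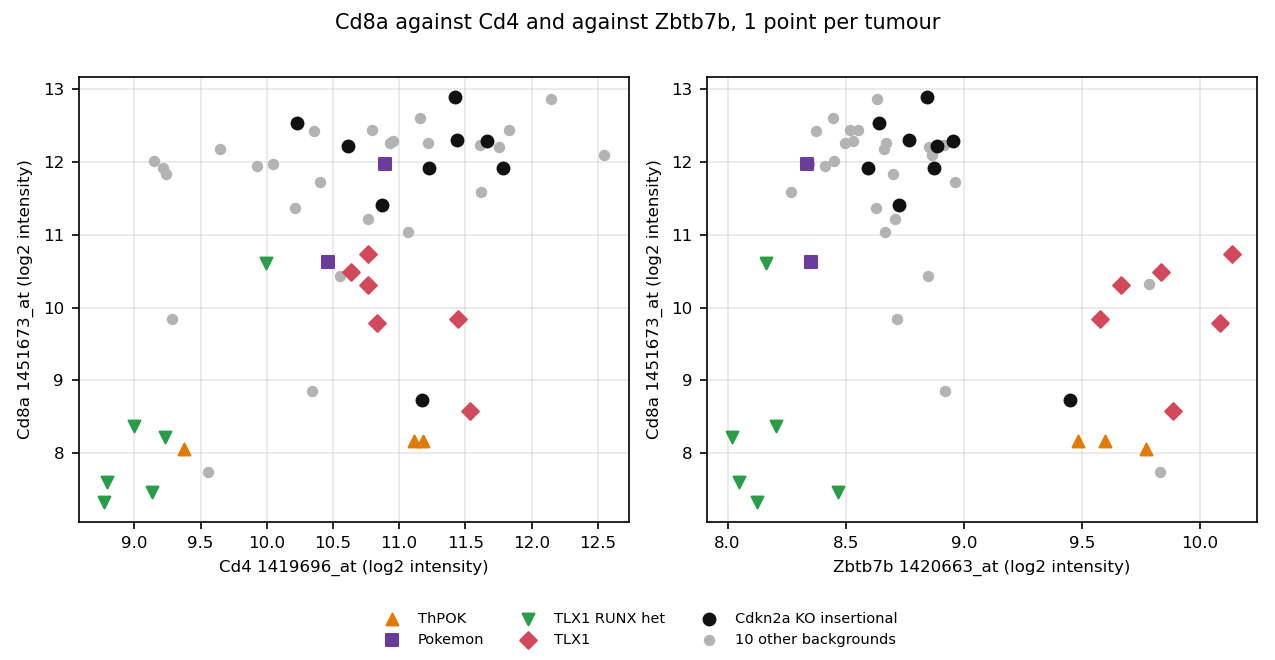
Log2 intensity of Cd8a 1451673_at (vertical) against Cd4 1419696_at (left) and Zbtb7b 1420663_at (right), with 1 point per tumour and 5 backgrounds marked. ThPOK tumours and Cdkn2a tumour 8 lie low in Cd8a at Zbtb7b values between 9.45 and 9.77, and 5 of 6 TLX1 RUNX het tumours are low in both. Among the unmarked backgrounds, p53 knock out tumour 2 lies at 7.75 in Cd8a and at least 9.78 in Zbtb7b.

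Genes whose pattern was most like each member's were looked for over the 41 tumours of backgrounds other than TLX1 and TLX1 RUNX het, as a description, since the tumours share array sets. Among 6624 candidate genes, Cd8b1 had rank 3 in likeness to Cd8a (r = 0.74), and Zbtb7b rank 6578 (r = −0.59). Leaving members aside, Mdm1 (0.78), Dck, the kinase that salvages deoxycytidine (0.75), and Cdc23, a subunit of the anaphase-promoting complex (0.74), were most like Cd8a, and C1qtnf1 (−0.80) and Vamp8, a vesicle fusion protein (−0.76), were most opposed. Vamp8 was also opposed to Cd8b1 (−0.71), to which Skp1 (0.81) and Socs1, a suppressor of cytokine signalling (0.79), were most alike. For Cd4 the strongest was the opposed Cbfa2t3, a corepressor (−0.77), and Atf7ip (0.69) was most alike. Zbtb7b was most like Ltbr, the lymphotoxin beta receptor (0.81), Tox most like the translation factor Eef1b2 (0.68), and Zbtb7a most like the demethylase Kdm5a (0.57).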

How the data were processed

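Expression was measured on 53 arrays, and the authors deposited linear intensities (55.1 to 25357) for 22690 probe sets. The method of summary and normalization is stated by none of the labels. Values were taken to log2, 64 control probe sets were left out, and 22626 were tested with no filter. The array's gene table gave 1 symbol to 20380 probe sets, several to 691 and none to 1555; a gene's leading probe set is the one of highest mean. Groups came from the labels. limma 3.58.1 (R 4.3.3) fitted the 15 background means, and each was contrasted with the mean of the 14 others, beside the named pairs, with Benjamini-Hochberg adjustment over all probe sets and a threshold of 0.05. The number of arrays per background limits precision. On simulated data 85.0% of probe sets changed by 1 on the log2 scale were recovered for ThPOK (n = 3) and 87.0% for Pokemon (n = 2). These data held independent noise around each probe set's overall mean, with no other background differences and no array sets. The changed probe sets were picked at random. The shares therefore say nothing of a single member, such as Cd8b1 with its SE of 0.54 in ThPOK tumours.

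Array sets came from average linkage clustering of 27 bacterial control probe sets. Correlations used 100000 permutations. Named genes were all members, up to 6 called genes of each list by size of difference, and the 5 most alike and 3 most opposed genes of each member, from which the text names some. No arrays were identical (highest correlation 0.988). Same-numbered tumours did not deviate together by the median over all backgrounds but Cdkn2a (216 pairs, median correlation −0.014). Numbers were therefore not used to pair samples in the main fit. A pooled median cannot exclude pairing between particular backgrounds. Alternatives were a low-signal filter, quantile normalization, centring, robust eBayes, array set limits and blocks, a replicate block, a plain mean, and leaving out backgrounds or tumours. The members and lists were chosen with earlier results of these data known.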

Additional observations from a re-analysis of the deposited data

Results flagged for a closer look

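Of 30 groups of a member probe set in a background of 6 to 9 tumours, 10 held a tumour far from the others. Dixon's criterion was used, which chance meets in about 1 in 20 independent groups. These groups share tumours, and some share a gene, so the count cannot be set against that share. Most flags came from Cdkn2a knock out tumour 8 and TLX1 RUNX het tumour 5. In Cdkn2a knock out tumour 8, Cd8a 1451673_at read 8.73 against 11.41 to 12.89 in the others, and Cd8b1 read 9.19 against 11.95 to 12.88. The same tumour had the highest Zbtb7b, at 9.45 against 8.60 to 8.95 by 1420663_at and at 9.89 against 9.18 to 9.41 by 1455071_at. Cdkn2a knock out tumour 7 had the lowest Tox, at 9.53 against 10.42 to 11.23 by 1425484_at.

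TLX1 RUNX het tumour 5 had Cd8a at 10.70 against 8.52 to 8.87 by 1425335_at and at 10.61 against 7.34 to 8.37 by 1451673_at. Its Cd8b1 read 10.83 against 7.95 to 8.68, and its Cd4 1427779_a_at read 8.10 against 7.81 to 7.90. TLX1 tumour 1 had Cd8a 1425335_at at 9.67 against 11.18 to 11.51 in the other TLX1 tumours.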

How the results depend on the processing

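With the low-signal filter, which tests fewer probe sets, the counts passing were 4069 for ThPOK against 6425, 414 for Pokemon against 717, 1962 for ThPOK against Pokemon where 4000 passed, 8855 for TLX1 RUNX het against TLX1 where 14054 passed, and 0 for rag E2A knock out against E2A knock out where 1 passed (1276 at an unadjusted p under 0.05). Leaving out 1 tumour gave 3798 to 4516 for ThPOK, 44 to 242 for Pokemon (44 without tumour 1), 615 (without Pokemon tumour 1) to 3213 for ThPOK against Pokemon, and 3 to 45 for the E2A pair. Pokemon gave 1292 in the largest array set, 474 without the Cdkn2a background and 1139 without p53 knock out. The E2A pair gave 4 with quantile normalization, 3 with centred arrays, 7 in the largest array set and 2 with array set as a block. Member pairs passing numbered 25 in the largest array set and 24 with that block, against 44, over fewer backgrounds. The cause of the other moves was not tested. The share of calls that were higher was 71.2%, 55.6% and 44.7% for ThPOK as deposited, with quantile normalization and centred, 77.0%, 59.7% and 52.8% for ThPOK against Pokemon, and 32.8%, 54.6% and 65.0% for TLX1 RUNX het against TLX1.

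The replicate block was fitted without the Cdkn2a background, whose titles do not number its tumours as a single series. The Cdkn2a tumour numbers used here follow the order of the samples. This block gave 6595 for ThPOK, 504 for Pokemon, 3750 for ThPOK against Pokemon, 13774 for TLX1 RUNX het against TLX1, 1 for the E2A pair and 35 member pairs. Cd8a 1425335_at in ThPOK against Pokemon passed with the block (−1.74, limma adjusted p = 0.0216) and in the largest array set (−1.61, adjusted p = 0.039). The fit without the Cdkn2a background and without the block, chosen after seeing the data, called 19534 probe sets in any background, and 18962 with the block. Array set could not be fitted for TLX1 RUNX het against TLX1, so those alternatives were not run.

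Signs turned only for differences that passed no test. For ThPOK, Cd4 1419696_at was 0.0079 with quantile normalization, 0.061 with the replicate block, 0.11 without beta-catenin, 0.035 without Cdkn2a, 0.023 without LMO1, 0.022 without TLX1, 0.053 without Nup98HoxD13, 0.047 without olig-LMO1, and between −0.32 and 0.58 without 1 ThPOK tumour. Tox 1425484_at was −0.11 with centred arrays or a plain mean, −0.020 without Nup98HoxD13 or rag E2A knock out, −0.12 without p53 knock out, −0.063 without Tal1 and −0.0045 without TLX1. For Pokemon, Cd4 1419696_at was −0.030 with array set as a block, and Cd8a 1425335_at was 0.16 with the replicate block, 0.021 with a plain mean and 0.00074 without beta-catenin. Tox 1425484_at was −0.017 with the block, −0.087 with a plain mean, −0.097 without p53 knock out and −0.039 without Tal1. Cd4 1427779_a_at was −0.041 in the largest array set, −0.019 with array set as a block and −0.035 without TLX1 RUNX het, and Cd8a 1451673_at was −0.15 and −0.25 in the first 2 of these. For ThPOK against Pokemon, Tox 1425484_at was 0.025 with the block and Cd4 1427779_a_at −0.070 with centred arrays, and for the E2A pair Cd4 1427779_a_at was −0.11 with the block. Without 1 tumour, ThPOK gave −0.40 to 0.13 for Tox 1425483_at and −0.14 to 0.31 for Tox 1425484_at. Pokemon gave −0.10 to 0.33 for Cd4 1419696_at, −0.76 to 0.62 for Cd8a 1425335_at, −0.36 to 0.98 for Cd8a 1451673_at and −0.93 to 0.50 for Cd8b1. ThPOK against Pokemon gave −0.43 to 0.47 for Cd4 1419696_at, −0.020 to 0.16 for Cd4 1427779_a_at, −0.18 to 0.28 for Tox 1425484_at and −1.16 to 0.27 for Cd8b1. The E2A pair gave −1.21 to 0.27 for Tox 1425483_at, −1.92 to 0.0060 for Tox 1425484_at and −0.026 to 0.29 for Cd4 1427779_a_at. The correlation of Cd8a and Tox was 0.075 with the mean of each gene's probe sets, and that of Zbtb7b and Tox 0.15 in the largest array set. In all, 866 alternative values kept their direction and side of the threshold or, for correlations, kept their sign and moved by less than a fixed amount.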
